A study of Mus musculus with 8 samples.

Results

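Ifit1, Ifit2, Ifit3, Isg15, Usp18, Rsad2, Bst2, Ifitm1, Ifitm2 and Ifitm3 are 10 genes that cells switch on in response to type I interferon. They were taken as a fixed list of symbols and matched to the Ensembl identifiers of the count files through a GRCm38 annotation, 10 genes of the 48709 in the files. All 10 passed the filter on low counts, which kept 12696 genes. RNA came from the offspring of mouse hematopoietic stem and progenitor cells (HSPCs), sorted from C57Bl/6J mice as Lin-Sca1+cKit+ cells, the marrow fraction that can form every blood lineage. Each culture started from 10000 cells and ran for 7 days without serum, fed in both groups with 2 cytokines, stem cell factor (100 ng/ml) and the ligand of Flt3 (2 ng/ml). The 4 control cultures had no malonyl-CoA and the 4 treated cultures had 100 µM malonyl-CoA, the building block of fatty acid chains. The libraries hold the progeny of the sorted cells after culture: Kit and Cd34 were counted in all of them, neutrophil precursor markers had the highest sum of the marker lists, and Mecom, a gene of stem cells at rest, was at 0.849 CPM (gene counts scaled to a common library total) or less. The age of the mice is not given in the sources used here, nor is it said whether a replicate number (1, 3, 4 or 5 in both groups) stands for an animal, a pool or a culture, so p-values measure the spread between these libraries.

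Type I interferons bind a receptor on the cell surface whose kinases, JAK1 and TYK2, phosphorylate transcription factors of the STAT family. With IRF9 these form a complex that binds a short promoter sequence, the interferon-stimulated response element (ISRE), and starts transcription of genes whose products block viral replication. In blood-forming tissue the same pathway also acts on the stem cells, where interferon signalling can drive them out of rest. IFIT proteins bind viral RNA, ISG15 is a ubiquitin-like protein that is attached to other proteins, USP18 takes it off and also blocks the receptor, viperin (Rsad2) makes a chain-terminating nucleotide, tetherin (Bst2) holds budding virus at the membrane, and IFITM proteins hinder fusion of virus with cell membranes.

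Promoter windows from RefSeq (GRCm38.p6, 250 bases before to 50 after a start site, 300 in all) were found by symbol for 9 of the 10 genes, all but Usp18. The core of the ISRE was searched as TTTC, any 2 bases and TTTC again, or on the other strand GAAA, any 2 bases and GAAA, with overlapping matches allowed. It was present in 7 of these 9 genes, Ifit1, Ifit3, Isg15, Rsad2, Bst2, Ifitm2 and Ifitm3. Of all 32851 windows of this length, 3.44% held the motif. A pair of matches or more in one window occurred in 5 of the 9 genes and in 0.225% of all windows. The stretches that hold the matches are shown because they set the genes with repeated motifs beside those with a single one. Each runs 5′ to 3′ on the gene's strand, and capitals mark the bases inside a match.
Ifit1: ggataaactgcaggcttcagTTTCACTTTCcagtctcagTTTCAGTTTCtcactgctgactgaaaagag
Ifit3: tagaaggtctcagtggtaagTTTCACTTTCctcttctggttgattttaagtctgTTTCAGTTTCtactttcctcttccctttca
Isg15: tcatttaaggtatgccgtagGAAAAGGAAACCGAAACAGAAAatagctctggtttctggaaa
Bst2: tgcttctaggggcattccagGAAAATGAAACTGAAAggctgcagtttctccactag
Ifitm3: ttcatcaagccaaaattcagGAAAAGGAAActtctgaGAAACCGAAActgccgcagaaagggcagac
Rsad2: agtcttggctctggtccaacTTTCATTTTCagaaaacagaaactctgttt
Ifitm2: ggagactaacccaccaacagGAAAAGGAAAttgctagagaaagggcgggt

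The first 5 of these stretches lie at chr19:34640765-34640833 (Ifit1, plus strand), chr19:34583353-34583436 (Ifit3, plus), chr4:156200855-156200916 (Isg15, minus), chr8:71537567-71537622 (Bst2, minus) and chr7:141010696-141010762 (Ifitm3, minus). Those of Rsad2 and Ifitm2 lie at chr12:26456543-26456592 and chr7:140955978-140956027, both on the minus strand. Isg15 held 3 matches that overlap one another, starting 78, 72 and 66 bases before the start site. Bst2 held a pair that overlap, at 130 and 124 bases before it, while the pairs of Ifit1 (104 and 85) and Ifit3 (156 and 122) stood apart. In Ifitm3 the pair began 2 and 19 bases after the start site, that is inside the transcript. The windows of Ifit2 and Ifitm1 held no match, which says only that these letters are not in those 300 bases. The gamma-activated site of STAT dimers, TTCNNNGAA (its own reverse complement), was found in the windows of 3 genes, Ifit2, Bst2 and Ifitm3, and in 8.3% of all windows. A match is a description of the sequence and not a measured binding site.

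The genes form 2 clusters in the genome. Ifit2 (GRCm38 chromosome 19, 34550694 to 34576419), Ifit3 (34583531 to 34588731) and Ifit1 (34640871 to 34650009) follow one another on the plus strand. Ifitm2 (chromosome 7, 140954837 to 140955987), Ifitm1 (140967221 to 140969825) and Ifitm3 (141009586 to 141010770) form the other cluster. The remaining genes stand alone: Isg15 on chromosome 4 (156199424 to 156200818), Usp18 on chromosome 6 (121245906 to 121270917), Bst2 on chromosome 8 (71534255 to 71537456) and Rsad2 on chromosome 12 (26442746 to 26456452). Some reads of these families cannot be placed. Of all runs of 50 bases in the Ifit3 transcripts, 51.24% also occur in its neighbour Ifit3b, and 48.51% of those of Ifitm2 occur in Ifitm3 or in predicted genes, one of which, Gm45717, overlaps Ifitm2 on the same strand and was at 0 in all libraries. The shared part was 10.02% for Ifitm3, 7.13% for Ifit1 and 5.02% or less for the others. Reads in several genes were not counted, so the level of Gm45717 sets no bound on the reads lost from Ifitm2. The levels of Ifit3 and Ifitm2 are therefore uncertain.

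Gene counts ran from 17492085 to 22079844 per library, and every pair of libraries differed by more than sampling noise. Malonyl-CoA 4 stood farthest out on the first principal component (63.3, with control 4 at 25.3 on the same side and the other libraries between -30.4 and 0.4), and its share of tallied reads outside genes was 2.94%, while the other libraries had 1.11% to 1.56%. All 8 libraries entered each comparison unless stated.

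No gene of the list passed the test, although the mean of all 10 was higher with malonyl-CoA. Their log2 fold changes (logFC, malonyl-CoA over control) lay between 0.092 (Ifitm2) and 0.83 (Isg15), with a median of 0.35 against 0.023 over all genes tested, of which 53.4% had a logFC above 0. A logFC of at least 0.5 was seen in 3 of the 10 (Ifit1, Isg15 and Ifitm3) and in 9.79% of all genes. With edgeR's quasi-likelihood test, adjusted over all 12696 genes, 0 of the 10 effectors were called, beside 0% of all genes called higher and 0% lower. At an unadjusted p under 0.05 edgeR found 1 of the 10, Ifit1, where 5.43% of all genes were higher and 4.1% lower at that level. Single libraries moved that count, to 6 of the 10 without malonyl-CoA 4, 4 without control 3 and 0 without control 4 or malonyl-CoA 3. The share of all genes at that level is not given for these fits. Whether the moves are particular to the effectors therefore cannot be told. DESeq2 called 0 of the 10, beside 0.553% of genes called higher and 0.134% lower, and had 4 of them at an unadjusted p under 0.05 (6.33% of genes higher, 4.1% lower). Limma-voom called 0 of the 10 and 0% of genes, with 1 effector at an unadjusted p under 0.05 (5.73% of genes higher, 3.91% lower). In 0 of the 10 did the groups separate, whereas all treated libraries exceeded every control in 3.21% of genes and fell short of every control in 2.93%.

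**Figure D1:**
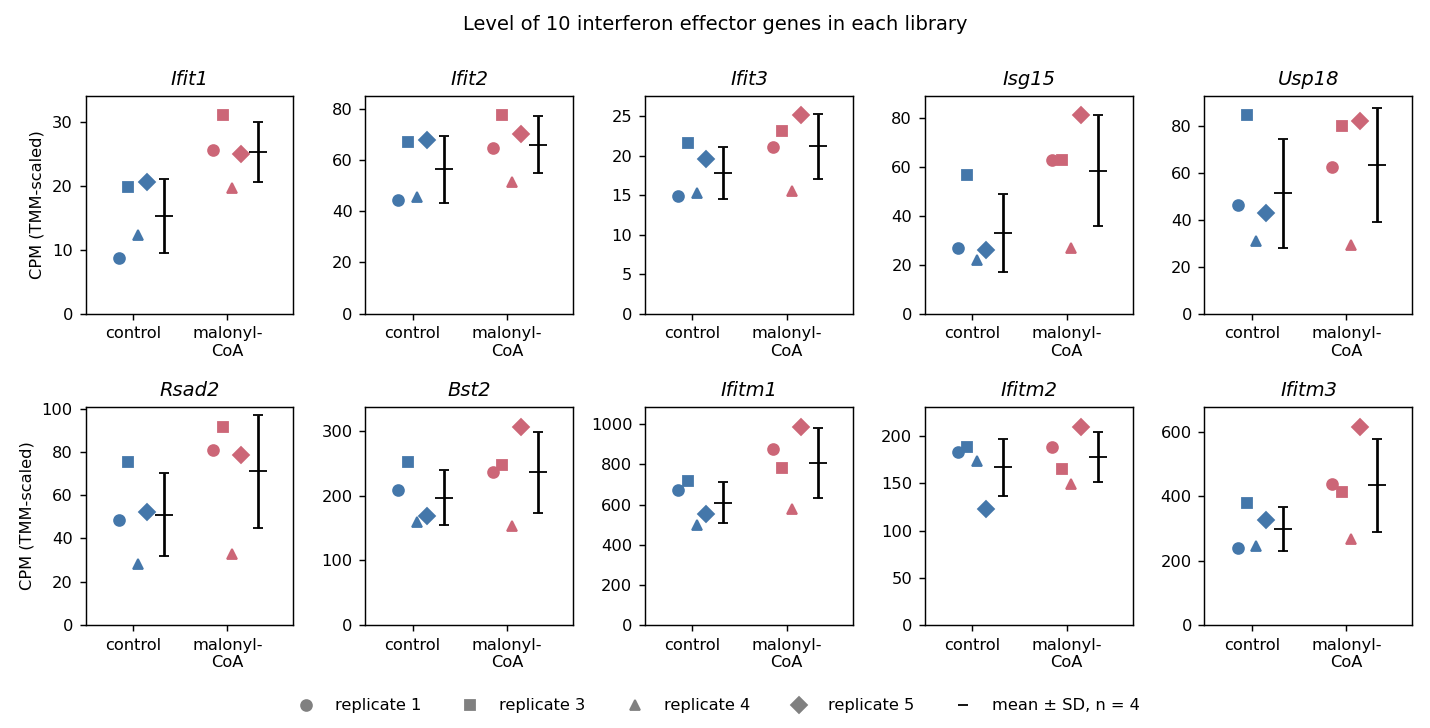
CPM (gene counts scaled to one common library total with TMM factors, which correct for library composition) of the 10 effector genes in each library, with control in blue and malonyl-CoA in red. The marker shape gives the replicate number, bars are the mean ± SD of 4 libraries, and in every panel the groups overlap.

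Among the 3 IFIT genes, Ifit1 had the largest difference between groups. Ifit1, whose product recognises RNA that lacks the cap of host messages, was at 8.78, 19.9, 12.3 and 20.6 CPM in controls 1, 3, 4 and 5 and at 25.7, 31.1, 19.7 and 25 CPM in malonyl-CoA 1, 3, 4 and 5. Of the treated libraries 3 lay above every control, and malonyl-CoA 4 lay between controls 4 and 3. The means were 15.4 ± 5.80 CPM in control and 25.4 ± 4.67 CPM with malonyl-CoA (SD, n = 4 each), a logFC of 0.72 (SE 0.267, edgeR adjusted p = 0.502). The 95% interval of the fold ran from 1.09 to 2.49, the one interval among the 10 genes that did not include 1. Ifit2, which forms complexes with the other IFIT proteins, was at 44.3, 67.1, 45.7 and 67.9 CPM in the controls and at 64.8, 77.3, 51.3 and 70.2 CPM in the treated libraries in the same order. Controls 3 and 5 reached the treated range, and the logFC was 0.23 (SE 0.188, edgeR adjusted p = 0.602, 95% interval of the fold 0.876 to 1.57). Ifit3, the last IFIT gene of the list, was at 14.9, 21.6, 15.3 and 19.6 CPM in the controls and at 21.1, 23.1, 15.5 and 25.1 CPM with malonyl-CoA. Malonyl-CoA 4 lay at the level of controls 1 and 4, and the logFC was 0.24 (SE 0.188, edgeR adjusted p = 0.585). With 1 library left out, the logFC ran from 0.13 to 0.33 for Ifit2 and from 0.15 to 0.36 for Ifit3. Ifit3b, the near copy of Ifit3, had a logFC of 0.32 (SE 0.206), also without a call.

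Isg15 and Usp18, the modifier and the protease that removes it, split the controls. Isg15 was at 26.9, 56.6, 22.1 and 25.9 CPM in controls 1, 3, 4 and 5 and at 62.8, 62.9, 27.0 and 81.0 CPM in the corresponding treated libraries. Control 3 stood near the high treated libraries, and malonyl-CoA 4 at the level of the low controls. The means were 32.9 ± 16.0 and 58.4 ± 22.6 CPM (SD, n = 4 each), a logFC of 0.83 (SE 0.373, edgeR adjusted p = 0.515), with a 95% interval of the fold from 0.994 to 3.18. Usp18 was at 46.3, 84.6, 31.2 and 43.2 CPM in the controls and at 62.7, 80.0, 29.4 and 82.1 CPM with malonyl-CoA. Its highest library was a control and its lowest a treated one, and the logFC was 0.31 (SE 0.364, edgeR adjusted p = 0.713). The logFC of Usp18 rested on single libraries, at 0.66 when control 3 was left out and 0.13 when control 4 was. Reads in several genes were not counted, so an unstranded count could lose Usp18 reads that overlap the antisense Gm44148. Gm44148 itself was at most at 0.188 CPM, which sets no bound on that loss.

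In Rsad2 and Bst2, the libraries numbered 4 of both groups were the lowest of all 8. Rsad2, the gene of viperin, was at 48.5, 75.2, 28.1 and 52.3 CPM in controls 1, 3, 4 and 5 and at 81.1, 91.7, 32.7 and 78.5 CPM in the treated libraries. The other 3 treated libraries lay above every control. The logFC was 0.48 (SE 0.349, edgeR adjusted p = 0.571), or 0.28 when control 4 was left out and 0.72 when control 3 was. Bst2, the tetherin gene and also a surface marker of plasmacytoid dendritic cells, was at 209, 252, 159 and 169 CPM in the controls and at 237, 247, 154 and 307 CPM in the treated libraries. The treated group held both the lowest and the highest value, and the logFC was 0.26 (SE 0.216, edgeR adjusted p = 0.603), running from 0.11 (without malonyl-CoA 5) to 0.41 (without malonyl-CoA 4) with 1 library left out. After a correction for GC content the logFC of Bst2 was 0.079.

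The IFITM genes had the highest levels per exon length of the list. Ifitm1 was at 674, 716, 498 and 552 CPM in controls 1, 3, 4 and 5 and at 875, 781, 579 and 988 CPM with malonyl-CoA, with means of 610 ± 102 and 806 ± 173 CPM (SD, n = 4 each). Its logFC was 0.40 (SE 0.183, edgeR adjusted p = 0.515), and 3 treated libraries lay above every control. Ifitm3, the family member best known for blocking influenza virus, was at 238, 380, 246 and 327 CPM in the controls and at 438, 415, 266 and 617 CPM in the treated libraries. The overlap came from malonyl-CoA 4 alone, and the logFC was 0.54 (SE 0.249, edgeR adjusted p = 0.515, 95% interval of the fold 0.991 to 2.14). When malonyl-CoA 5, the highest library, was left out the logFC of Ifitm3 was 0.32, and without malonyl-CoA 4 it was 0.71. Ifitm2, a close paralog of Ifitm3, was at 183, 188, 174 and 123 CPM in the controls and 188, 165, 149 and 210 CPM in the treated libraries. Its logFC of 0.092 (SE 0.162, edgeR adjusted p = 0.805) was the smallest of the 10 and turned to -0.029 without control 5 and to -0.06 after a correction for GC content.

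**Figure D2:**
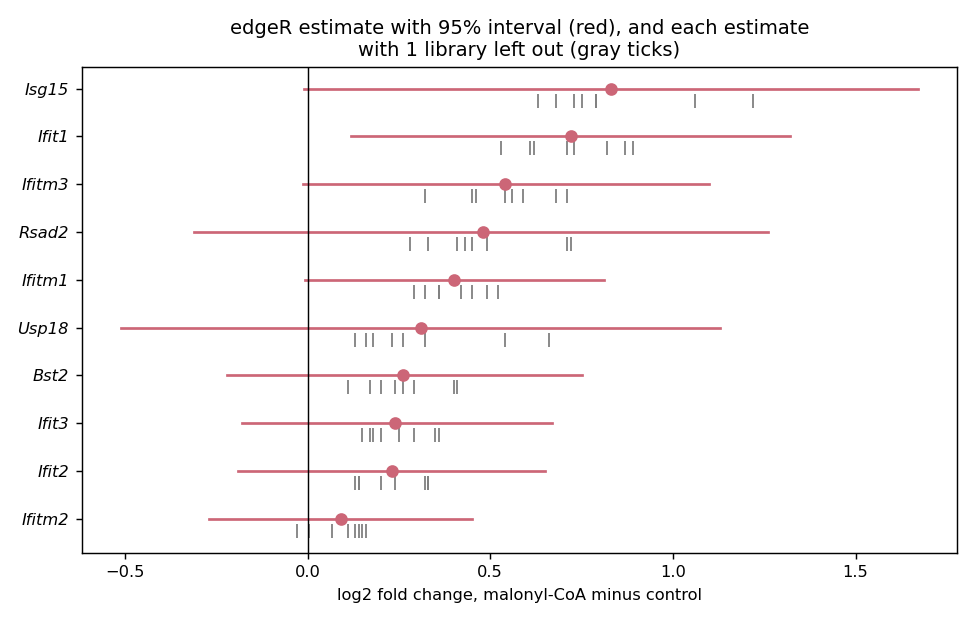
Log2 fold change (x axis, malonyl-CoA minus control) of each effector gene from edgeR with its 95% interval in red. Gray ticks below each line are the estimates with 1 library left out, and only the interval of Ifit1 lies above 0.

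Compared per length of exon, the levels of the 10 genes in control cultures ran from the middle to the top of the range of tested genes. The means of the 4 controls in RPKM (CPM per kilobase of exon) were 558 for Ifitm1, 439 for Ifitm3, 255 for Ifitm2 and 218 for Bst2. These were followed by Isg15 at 43.5, Usp18 at 18.4, Ifit2 at 14.3, Rsad2 at 11.8, Ifit3 at 10.2 and Ifit1 at 5.79 RPKM. Ifitm1 stood at percentile 99.6 of all tested genes and Ifit1 at percentile 48.7. In this order, the ranges over the 4 controls did not overlap between Ifitm3 and Ifitm2, between Bst2 and Isg15, or between Ifit3 and Ifit1, and the other 6 pairs of neighbours overlapped. Of the runs of 50 bases, 48.51% in Ifitm2 and 51.24% in Ifit3 also occur in other genes. Reads with several alignments were not counted, so the levels of Ifitm2 and Ifit3 and their places in this order are uncertain. The membrane effectors Bst2, Ifitm1, Ifitm2 and Ifitm3 stood at percentile 98.6 or above, and the RNA-binding IFIT genes between percentiles 48.7 and 70.5.

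**Figure D3:**
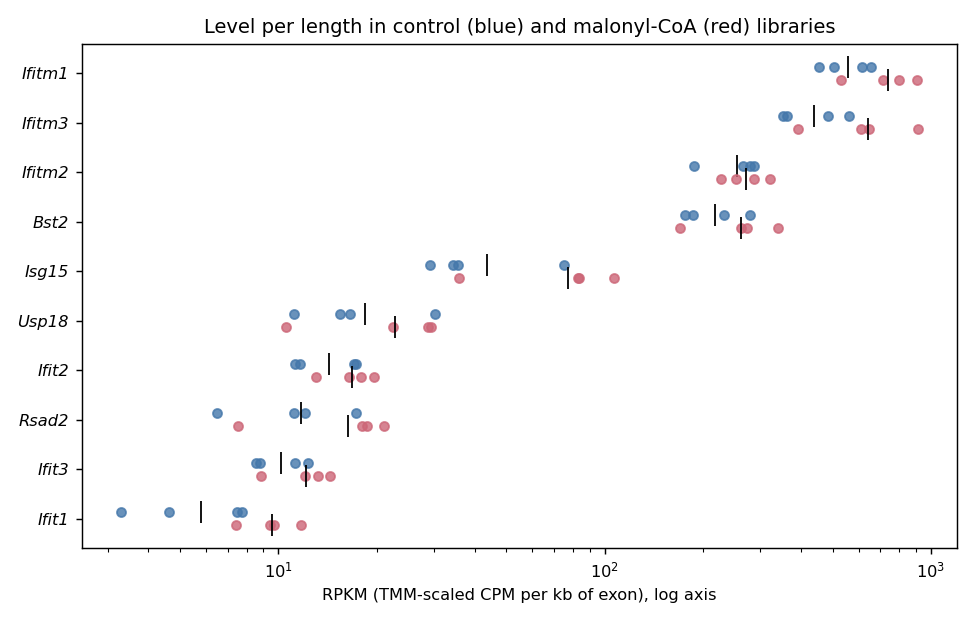
Level per length (RPKM, log axis) of each effector gene in the 4 control (blue) and 4 malonyl-CoA (red) libraries, with black ticks at the group means. A gap separates Ifitm1, Ifitm3, Ifitm2 and Bst2, at 218 RPKM or more in the control mean, from the other genes, at 43.5 RPKM or less.

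The genes varied together from library to library. The mean centred log2 CPM of the 10 genes was -0.34, 0.25, -0.54 and -0.19 in controls 1, 3, 4 and 5 and 0.30, 0.39, -0.40 and 0.53 in the treated libraries. Control 3 thus lay just below the lowest of the 3 high treated libraries, and malonyl-CoA 4, the lowest treated library in each of the 10 genes, lay below 3 of the 4 controls. The groups differed by 0.41 on this scale, and the SD between libraries was 0.335 in control and 0.414 with malonyl-CoA. Of the 45 pairs of genes, 43 had a Pearson's r above 0 over the 8 libraries, with a median of 0.818, given here as a description of libraries that share depth and preparation. With the group means taken out, the median over the same pairs was 0.79. Before that step Usp18 and Rsad2 reached 0.951 and Ifit3 and Ifitm3 0.955, whereas Ifitm2 had -0.0379 with Ifit1 and -0.0121 with Ifit2. The first principal component of all tested genes held 48.9% of the variance. No r is given for pairs of other genes, so whether the shared variation is particular to this list cannot be told. Set against the control of the same number, 7 genes were higher in all 4 treated libraries, and Usp18, Bst2 and Ifitm2 in numbers 1 and 5 but not in 3 and 4. The labels do not define the numbers as pairs, and over all tested genes the deviations of the libraries numbered 5 correlated at 0.0523. The share of all genes higher in all 4 is not given, so whether this is particular to the effectors cannot be told.

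**Figure D4:**
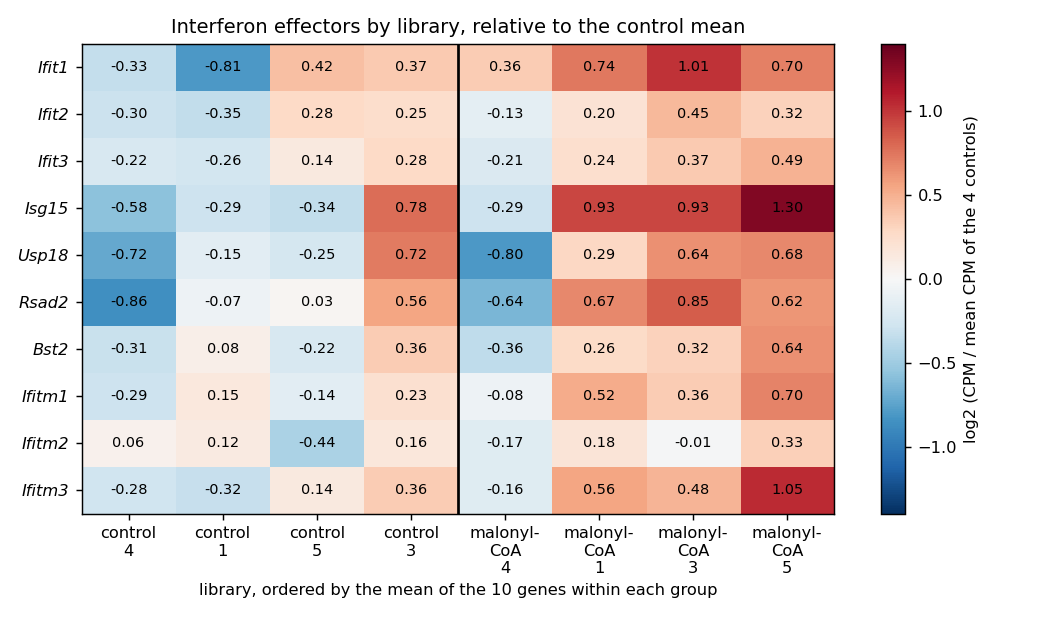
Log2 ratio of each library's CPM to the mean of the 4 controls, for 10 effector genes (rows) and 8 libraries (columns, ordered within each group by the mean of the genes). Control 3 resembles the treated libraries in Isg15, Usp18 and Rsad2, and malonyl-CoA 4 is the lowest treated library in all 10 genes.

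The genes most like this pattern were found by Pearson's r with the mean centred log2 CPM of the 10 effectors over the 8 libraries, among named genes whose log2 CPM averaged 1 or more. They were Ifi27l2a (0.992), an interferon-inducible gene, Marcksl1 (0.989), a regulator of actin, H2-Eb1 (0.986), a chain of MHC class II, Rras (0.980), a small GTPase, Socs1 (0.979), an inhibitor of JAK kinases, and Ccr7 (0.978), the chemokine receptor of migrating dendritic cells. Ifi27l2a was at 50.2, 84.1, 36.9 and 51.1 CPM in controls 1, 3, 4 and 5 and at 90.3, 91.9, 40.6 and 120 CPM with malonyl-CoA. Ccr7 was at 5.76, 10.2, 3.59 and 5.16 CPM in the controls and at 12.4, 16.1, 4.91 and 15.3 CPM in the treated libraries. In both genes control 3 was the highest control and the libraries numbered 4 were the lowest of their groups. None of the 6 genes passed the test (edgeR adjusted p of 0.515 to 0.539).

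Interferon ligands were almost not counted. Of 18 genes for type I, II and III interferons, none passed the filter, and 12 had 0 counts in all 8 libraries, which allows up to 0.0189 CPM (3 of 159049733 counts, counting error only). Ifnb1, the interferon beta gene, had 5, 9, 1 and 1 counts in the controls and 1, 1, 3 and 5 in the treated libraries. Its highest count was in control 3. Ifng, the gene of interferon gamma, had 0, 1, 0 and 3 counts in the controls and 17, 0, 0 and 1 with malonyl-CoA, so that 17 of its 22 counts came from malonyl-CoA 1. The interferon alpha genes are near copies of one another, and reads that align to several genes were not counted. No difference in ligand RNA between the groups was detectable at this depth, and RNA was taken at day 7 only.

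Receptor and signalling genes had small differences. Of 12 receptor and JAK-STAT genes 11 were tested, 9 were higher and 2 lower in the mean, and edgeR called 0, with 3 at an unadjusted p under 0.05 and a median logFC of 0.16. For this and the lists that follow, edgeR had 5.43% of all genes higher and 4.1% lower at that level. A logFC above 0 was seen in 53.4% of all genes. Ifngr2, a chain of the interferon gamma receptor, averaged 58.8 ± 5.63 CPM in control and 72.9 ± 1.12 CPM with malonyl-CoA (SD, n = 4 each; logFC 0.31, SE 0.106, edgeR adjusted p = 0.468), with no overlap of the groups. Ifnar1, a chain of the type I receptor, had a logFC of 0.34 (SE 0.138), Stat2 0.54 (SE 0.221) and the kinase gene Tyk2 0.34 (SE 0.164). Ifngr2 and Stat2 were the 2 genes of this list with every treated library above every control, which 3.21% of all genes had. Stat2 was highest in malonyl-CoA 4 at 74.4 CPM, the lowest treated library in all 10 effectors. Irf9, a partner of STAT2 that was singled out after its values were seen, had a logFC of 0.09 (SE 0.159).

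Among the interferon regulatory factors 2 separated the groups, Irf1 and Irf5. Every treated library lay above every control in 3.21% of all genes. Of 8 genes, 6 were higher and 2 lower, edgeR called 0, 3 had an unadjusted p under 0.05 and the median logFC was 0.16. Irf1, a factor that interferon gamma and NF-kB both induce, was at 37.8, 47.4, 39.8 and 37.2 CPM in controls 1, 3, 4 and 5 and at 63.4, 65.6, 59.9 and 58.9 CPM with malonyl-CoA. The groups did not overlap, malonyl-CoA 4 included (logFC 0.61, SE 0.117, edgeR adjusted p = 0.352). DESeq2 called Irf1, with an adjusted p of 0.00219, beside 0.553% of all genes called higher. Irf5 had a logFC of 0.49 (SE 0.125) with no overlap, Irf7, which amplifies the type I response, 0.88 (SE 0.271), and Irf3, the constitutive factor, 0.25 (SE 0.156).

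In the ISG15 conjugation list, which holds Isg15 and Usp18, 5 of 6 genes were higher, edgeR called 0 with 1 at an unadjusted p under 0.05, and the median logFC was 0.26. Uba7, the enzyme that activates ISG15, averaged 33.1 ± 7.48 CPM in control and 44.4 ± 0.773 CPM with malonyl-CoA (SD, n = 4 each; logFC 0.42, SE 0.165, edgeR adjusted p = 0.504), with all treated libraries above every control. Uba7 was the 1 gene of this list with that position, beside 3.21% of all genes. Herc6, the ligase of mouse ISG15, had a logFC of 0.12 (SE 0.168). Of the 7 feedback inhibitors, Usp18 among them, 5 were higher and 2 lower, edgeR called 0, 3 had an unadjusted p under 0.05 and the median was 0.31. Socs3, which inhibits JAK kinases at cytokine receptors, had a logFC of 1.32 (SE 0.388), Ptpn6, the phosphatase SHP-1, 0.58 (SE 0.166), Socs1 0.90 (SE 0.391) and Ptpn2 -0.19 (SE 0.185). Ptpn6 was the 1 gene of these 7 with all treated libraries above every control. Within the families, 3 of whose members in each are effectors of the list, all 5 tested IFIT genes and 4 of 5 tested IFITM genes were higher, with 0 called by edgeR, 1 and 0 at an unadjusted p under 0.05, and medians of 0.32 and 0.092.

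Other interferon-responsive genes had larger median differences, although edgeR called 0 of them. Of 33 further type I effectors 32 were tested, and all 32 were higher in the mean, 16 of them at an unadjusted p under 0.05, with a median logFC of 0.61. Of all genes, 53.4% had a logFC above 0, and edgeR had 5.43% higher and 4.1% lower at that level. Oas2, which senses double-stranded RNA, was at 1.54, 3.87, 2.75 and 2.77 CPM in controls 1, 3, 4 and 5 and at 5.36, 6.01, 12.1 and 7.21 CPM with malonyl-CoA. Here malonyl-CoA 4 was the highest library of all (logFC 1.49, SE 0.328, edgeR adjusted p = 0.352). Zbp1, a sensor of Z-form nucleic acid, had a logFC of 0.97 (SE 0.247), Parp14 0.80 (SE 0.209) and the exonuclease gene Isg20 0.85 (SE 0.221). All treated libraries lay above every control in 4 of the 32 genes, Oas2 and Parp14 among them, and in 3.21% of all genes. DESeq2 called Oas2 (adjusted p = 0.00738) and Zbp1 (adjusted p = 0.0419) of these 32 genes, beside 0.553% of all genes called higher.

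All 15 genes known for their response to interferon gamma were higher in the mean, 11 at an unadjusted p under 0.05 and 0 called by edgeR, with a median logFC of 0.90. Of all genes, 53.4% had a logFC above 0, and edgeR had 5.43% higher and 4.1% lower at that level. Gbp5, a GTPase of antimicrobial defence, was at 11.6, 17.9, 15 and 16.6 CPM in the controls and at 38.9, 30.9, 28.3 and 29.1 CPM in the treated libraries. All treated libraries lay above every control (logFC 1.06, SE 0.169, edgeR adjusted p = 0.218). That held for 2 of the 15 genes, Gbp5 and Irf1, and for 3.21% of all genes. Gbp2 had a logFC of 1.15 (SE 0.310) and Ciita, the switch of MHC class II genes, 1.05 (SE 0.338). DESeq2 called Gbp5 (adjusted p = 4.23e-05), Irf1 and Gbp2 (adjusted p = 0.0436), beside 0.553% of all genes called higher. These lists share genes with each other, and whether they differ from the 10 effectors was not tested.

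Leaving out 1 library moved these lists too, and edgeR still called 0 of their genes each time. The edgeR counts at an unadjusted p under 0.05 in these fits have no share of all genes beside them. Whether their moves are particular to the lists therefore cannot be told. Of the 32 further type I effectors, 10 had an unadjusted p under 0.05 without control 1 or control 4 and 24 without malonyl-CoA 4, and 31 were higher without control 4. Of the 15 interferon gamma genes, 6 to 13 had an unadjusted p under 0.05, the lowest without control 1 and the highest without malonyl-CoA 4. Their median logFC ran from 0.65 to 0.91, and that of the further type I effectors from 0.45 to 0.81. The smaller lists moved by more than 1.5 times: the ISG15 conjugation median ran from 0.095 (without control 4) to 0.49 (without control 3), the feedback median from 0.18 (without malonyl-CoA 3) to 0.63 (without control 3) and the receptor and JAK-STAT median from 0.077 (without control 1) to 0.25 (without malonyl-CoA 5). The median of the regulatory factors was 0.094 without malonyl-CoA 4, that of the IFIT family 0.20 without control 1, and that of the IFITM family ran from 0.0086 (without malonyl-CoA 5) to 0.21 (without malonyl-CoA 4). After the GC correction the median of the regulatory factors was 0.067 and that of the IFITM family 0.14. Genes at an unadjusted p under 0.05 numbered 1 to 4 in the receptor list, 2 to 3 in the feedback list and 0 to 2 in the ISG15, IFIT and IFITM lists with 1 library left out.

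**Figure D5:**
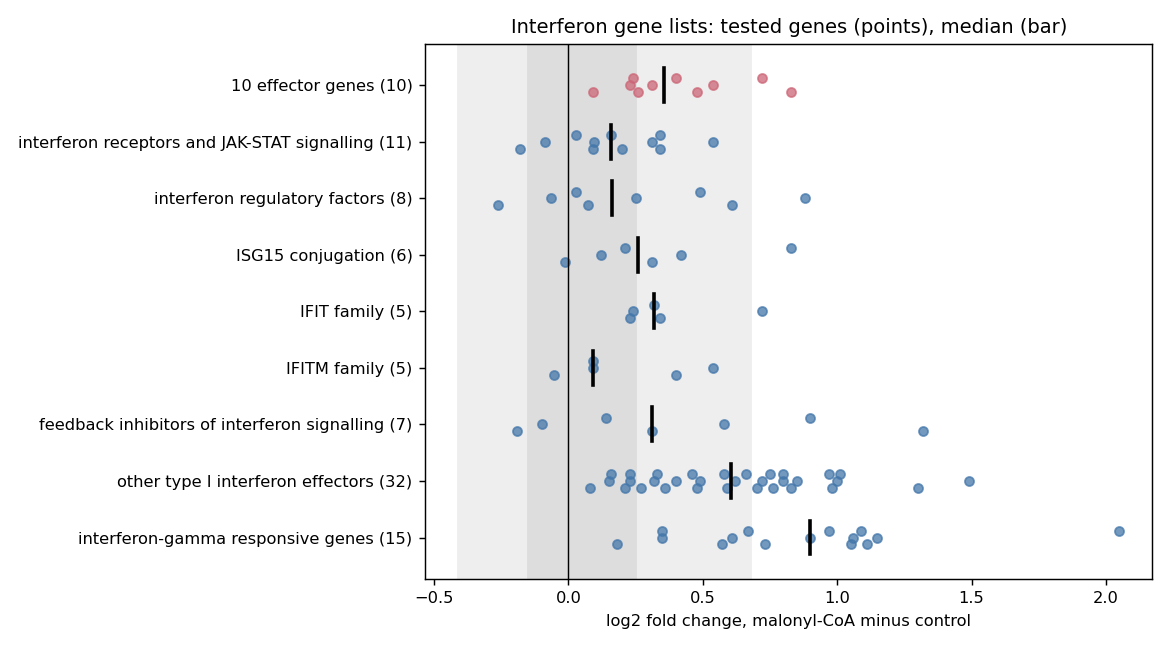
Log2 fold change (x axis, malonyl-CoA minus control) of every tested gene in the 10 effectors (red) and 8 interferon lists (blue, number tested in brackets), with a bar at each median. Dark and light gray bands hold the middle 50% and 90% of all 12696 genes, and the medians run from 0.092 in the IFITM family to 0.90 in the interferon gamma list.

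Without control 5 and malonyl-CoA 4, which earlier results of these data had set apart, edgeR called 0 of the 10 effectors and 0% of genes, and the median logFC of the effectors was 0.48. In those 6 libraries 6 effectors had an unadjusted p under 0.05, where 5.21% of all genes were higher and 3.44% lower. There the logFC was 1.00 for Ifit1, 0.97 for Isg15, 0.77 for Ifitm3 and 0.73 for Rsad2. Without control 3 alone the median was 0.57, and without control 4 alone it was 0.23.

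Markers of the cells in culture are given beside these values, and their part in them was not tested. All 7 stem and progenitor markers were tested, with a summed level of 1050 to 1140 CPM in control and 968 to 997 CPM with malonyl-CoA. Kit and Cd34 made up most of that sum, with both counted in every library. Of these 7 markers 4 were lower in the mean and 0 were called, and Cd34 (430 to 476 CPM against 545 to 643 CPM in control) and Hlf (logFC -0.55) lay below every control, each with an edgeR adjusted p of 0.352. Of all genes, 2.93% lay below every control. The 3 markers with a higher mean were Procr (logFC 1.14), Ly6a (0.94) and Mecom (0.21), and the median logFC of the list was -0.023. Over the 8 libraries, r with the mean centred log2 CPM of the effectors was 0.973 for Ly6a, the gene of the Sca-1 antigen used in the sort and itself inducible by interferon, and 0.909 for Procr. It was -0.0637 for Mecom, -0.229 for Flt3, -0.401 for Hlf, -0.513 for Cd34 and -0.925 for Kit, so that the list did not vary as one. Ly6a was at 24.7, 69.2, 26.3 and 48.8 CPM in controls 1, 3, 4 and 5 and at 80.6, 106, 29.0 and 110 CPM with malonyl-CoA. Control 3 was again the highest control and malonyl-CoA 4 the lowest treated library. Ly6a, Cd34 and Hlf were singled out after their values were seen. Neutrophil precursor markers (7 of 7 lower, 0 called) summed to 11400 to 20400 and 13100 to 17100 CPM, mast cell and basophil markers (6 of 6 lower, 0 called) to 893 to 1080 and 739 to 852 CPM. The neutrophil logFC ran from -0.84 (Camp) to -0.029 (Prtn3), with Mpo, the largest part of the sum, at -0.034. The mast cell and basophil logFC ran from -0.48 (Fcer1a) to -0.16 (Prss34). A logFC above 0 occurred in 53.4% of all genes. Monocyte and macrophage markers, mostly Ly6c2 and Ccr2, summed to 1940 to 2370 and 1980 to 2330 CPM, with 4 of 6 tested genes higher and 0 called. Their logFC was 1.25 for Fcgr1, 0.52 for Csf1r, 0.28 for Cd68, 0.055 for Adgre1, -0.077 for Ly6c2 and -0.26 for Ccr2. For this list r with the effectors ran from -0.0817 (Ccr2) to 0.93 (Fcgr1). Plasmacytoid dendritic markers, a cell type known as a source of type I interferon, summed to 1130 to 1280 and 1170 to 1290 CPM, with 4 of 7 higher and 0 called, and their defining gene Siglech was at 82.4 to 145 CPM in control and 90.3 to 128 CPM with malonyl-CoA, with an r of -0.0391 with the effectors. The other tested genes of that list had an r of -0.246 (Klk1), -0.223 (Irf8), -0.139 (Tcf4), 0.403 (Ccr9) and 0.885 (Cox6a2), beside Bst2, which is itself an effector. Conventional dendritic markers, mostly Flt3, summed to 216 to 272 and 223 to 281 CPM, with 4 of 6 tested genes higher and 0 called. Their logFC was 1.05 for Ciita, 0.98 for Ccr7, 0.61 for Zbtb46, 0.21 for Itgax, -0.023 for Flt3 and -0.72 for Cd209a (median 0.41). In the same order, r with the effectors was 0.154, 0.978, 0.676, 0.881, -0.229 and -0.148. Erythroid markers summed to 12.6 to 16.4 and 9.91 to 11.3 CPM, megakaryocyte markers to 661 to 809 and 545 to 803 CPM, and endothelial and stromal markers, mostly Pecam1, to 92.0 to 149 and 110 to 176 CPM. Mature lymphoid cells were nearly absent from the RNA: the B lymphoid sum was at most 1.83 CPM and that of T and NK cells at most 1.42 CPM, with Cd3e at 0 in all libraries. In bulk RNA, fewer cells of a type and less RNA per cell cannot be told apart.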

How the data were processed

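RNA from 8 cultures, 4 with and 4 without malonyl-CoA as the sample titles give it, was sequenced from stranded total RNA libraries made from 350 ng, per the labels' protocols. The authors deposited raw counts per Ensembl gene: whole numbers, unscaled. Per the submitters' processing notes, cutadapt 1.8, STAR 2.5.2b, HTSeq 0.6.1 and GRCm38 were used. For the gene annotation and the strand mode, the release and setting were not given in the sources used here. Lines that name no gene were kept out: as shares of all tallied reads, those outside genes made up 1.11% to 2.94%, those in several genes 0.715% to 0.891% and those with several alignments 38.2% to 51.1%. Of 48709 identifiers, 48349 matched GENCODE M21 (GRCm38), which gave symbols, coordinates and exon lengths.

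The test was edgeR 4.0.16 in R 4.3.3: filterByExpr (minimum count 10, minimum total 15), TMM, robust glmQLFit, two-sided glmQLFTest, Benjamini-Hochberg over 12696 genes, threshold 0.05, no covariate. Standard errors were derived from the fold change and F, and 95% intervals use the fit's degrees of freedom. A prior count of 2 entered log2 CPM. The fits were run on simulated counts with known changes, each larger than the logFC of any effector in the edgeR fit of all 8 libraries. The simulation therefore does not show how often changes of the size seen here would be called. DESeq2 1.42.0 and limma-voom (limma 3.58.1) were alternatives, beside other scalings, filters, a GC correction, the replicate number as a block and libraries left out.

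The 10 effectors, the gene lists and the marker lists were chosen with earlier results of these data known, and no list was tested as a set. All 10 effectors are named, and of each list up to 4 tested genes with the smallest unadjusted p, plus the 6 genes most alike. Outside this rule, Irf9 and the marker genes Ly6a, Cd34 and Hlf were chosen after their values were seen, and other marker genes are named to describe their lists.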

Additional observations from a re-analysis of the deposited data

Results flagged for a closer look

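In 4 of 78 sets (39 named genes in 2 groups of 4 libraries), 1 library lay far from the other 3 by Dixon's criterion for 4 samples. Chance alone gives about 1 in 20. Isg15 in control 3 was at 56.6 CPM, with the other controls at 22.1 to 26.9 CPM. Isg20, another interferon-induced gene, was also high in control 3, at 13.4 CPM against 7.42 to 8.40 CPM. Stat2 in control 1 was low at 26.2 CPM, with the others at 37.1 to 38.6 CPM. Ifit3b, the near copy of Ifit3, was low in malonyl-CoA 4 at 3.48 CPM, against 5.41 to 5.68 CPM.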

How the results depend on the processing

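None of the 24 alternatives called any of the 10 effectors, and 9 of the 10 kept a logFC above 0 in all of them. Ifitm2 turned from 0.092 to -0.06 after the GC correction, to -0.072 with the replicate block and GC correction, to -0.029 without control 5 (up to 0.16 when malonyl-CoA 4 was left out) and to -0.11 without both libraries numbered 5; the cause was not tested. The median of the 10 ranged from 0.23 (without control 4) to 0.57 (without control 3). Over all genes 0 were called in 20 alternatives, 1 with no low-count filter, which tests more genes, 87 with DESeq2, 172 with the replicate block and 6 with the block and GC correction. The labels do not say that a replicate number is a pair, so the block is given as an alternative only. The deviations of same-numbered libraries from their group means correlated at 0.435, 0.428 and 0.754 for numbers 1, 3 and 4, and at 0.0523 for number 5. Control 5 correlated more with malonyl-CoA 3 (0.123), so not every library correlated best with its own number. With the block the smallest adjusted p among the effectors were those of Rsad2 (0.0747) and Ifit1 (0.0803), and it called Irf1, Socs3, Ptpn6, Ciita and Gbp5 (adjusted p of 0.0464 to 0.0481), none of which it called with the GC correction added. Bst2 was at 0.079 after the GC correction and 0.047 with the block and GC correction. Depth limits the interferon ligands, which had at most 26 counts per gene over all libraries.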
